A study of Aspergillus glaucus with 6 samples.

Results

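This account concerns 15 genes of the salt-tolerant filamentous fungus Aspergillus glaucus, strain CCHA. After 84 h their transcripts were lower at each successive concentration of sodium chloride (NaCl). Every step was moderate on the scale used to choose them. These genes are 15 of the 8441 gene IDs listed in the deposited counts. Members were chosen on measured values, namely counts scaled to the library total (CPM) with 1 added. At each step of the series 0M, 1M, 3M, 4M NaCl, this value had to be lower by 1.3-fold to under 3-fold. It also had to be at least 11 in 0M, at least 4 times its 4M value, and in 3M at 84 h under 3 times the higher of the 36 h values. A set of 51 ID numbers was left out of the rule, and 1 gene that met all its conditions was set aside for that reason. The values of the members at 84 h therefore describe the choice, and no test is attached to them.

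The study sequenced RNA from mycelium, collected by vacuum filtration, of cultures in medium with different amounts of added NaCl. Of its 6 libraries, all from strain CCHA, 4 are from 84 h of NaCl treatment (doses of 0M, 1M, 3M and 4M, where M is mol per litre) and 2 from 36 h (doses of 3M and 1M). There is a single library for every condition, so no spread between cultures can be measured and no difference has a p-value. The labels name neither the base medium, nor any growth before the treatment, nor whether cultures were pooled.

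High external salt lowers the water available to a fungal cell and loads it with sodium. Filamentous fungi are known to answer with a mitogen-activated protein kinase cascade (the high-osmolarity glycerol pathway), with the build-up of compatible solutes such as glycerol, and with sodium export. Growth, wall synthesis and development often shift with the dose of salt, and a transcript can follow the dose step by step or switch at a threshold. The files do not pair gene IDs with names, and 0 IDs matched a RefSeq table of 11428 genes of another strain (assembly Aspgl1). Roles are therefore unknown for all 15 genes, osmostress genes and markers of spores and fruiting bodies could not be looked up, and no sequence could be assigned.

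Library totals ran from 16371771 to 18376857 counts. The 15 genes had a read in every library, and their lowest count was 12. Levels below are CPM scaled by TMM, a correction for library composition, in which 3 counts correspond to 0.155 to 0.185 CPM. Gene lengths are not known, so CPM is compared between libraries and not between genes. Fold changes are log2 values computed with a prior count of 2. Each interval is an exact 95% interval (Clopper-Pearson) that covers counting error only. It is the interval of the ratio without the prior count, so at low counts the log2 value beside it is nearer to 0 than that ratio. Across 6159 genes with at least 10 CPM in 0M at 84 h, the library in 4M at 84 h was most alike to the one in 3M at 36 h (Pearson r = 0.944 of log2 CPM), and r over the 15 pairs went down to 0.618. The library in 3M at 84 h had r = 0.903 with 1M at 36 h, 0.860 with 0M and 0.859 with 1M at 84 h, but 0.741 with 3M at 36 h and 0.729 with 4M at 84 h. A wrong or exchanged label among the 3M libraries was not tested. The 84 h steps that involve 3M rest on the 3M library of 84 h. The salt contrast at 36 h rests on that of 36 h, and the time difference in 3M on both.

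In the 84 h series the median level of the 15 genes was 20.5 CPM in 0M, 10.8 CPM in 1M, 5.07 CPM in 3M and 2.39 CPM in 4M. Over all 6159 genes at the same minimum, the median stayed between 60.1 and 61.6 CPM in these 4 libraries. The 15 genes together took 0.196% of counts in 0M (95% interval 0.194 to 0.198), 0.0996% in 1M, 0.0582% in 3M and 0.0362% in 4M (0.0354 to 0.0371). Each of the 15 was 4-fold or more below its 0M level in 4M, as the rule asks. The same held for 10.5% of the 6159 genes. Between 4M and 0M the members' log2 fold changes ran from -4.19 to -2.16, with a median of -3.01.

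**Figure D1:**
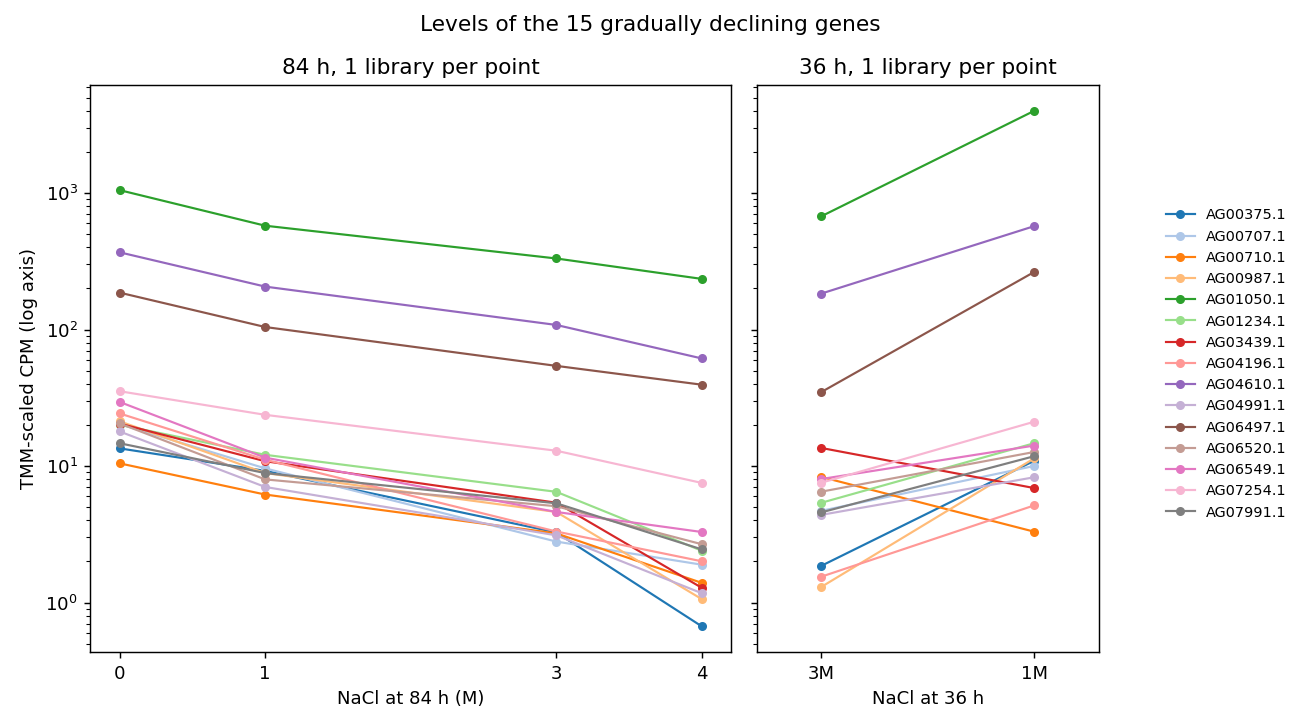
Level of each of the 15 genes in TMM-scaled CPM (log axis) against NaCl at 84 h (left) and in 3M and 1M NaCl at 36 h (right); each point is 1 library and each line 1 gene. At 84 h all lines go down from 0M to 4M, with 3 genes above 100 CPM in 0M and 12 between 10.5 and 35.3 CPM; at 36 h 13 genes are lower in 3M than in 1M and 2 are higher.

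Most of the summed reads came from 3 genes, AG01050.1, AG04610.1 and AG06497.1. AG01050.1 stood at 1050 CPM in 0M, 576 CPM in 1M, 331 CPM in 3M and 235 CPM in 4M at 84 h, and at 36 h it had 673 CPM in 3M and 4006 CPM in 1M. Its 84 h levels were thus ordered by salt, but the highest of all 6 was the 1M culture at 36 h. AG04610.1 had 368 CPM in 0M, 206 CPM in 1M, 108 CPM in 3M and 61.3 CPM in 4M at 84 h, and its 36 h levels were 183 CPM in 3M and 573 CPM in 1M. AG06497.1 had 186, 104, 54.2 and 39.4 CPM in 0M, 1M, 3M and 4M at 84 h, and 34.7 CPM in 3M and 265 CPM in 1M at 36 h. For each of these 3 genes the 36 h culture in 1M exceeded all 4 of the 84 h cultures. AG01050.1 alone supplied 56.7% of the members' summed counts in 0M, 64.6% in 4M, and 80.5% in 1M at 36 h. The decline of these 3 genes from 0M to 4M was among the smallest of the 15, with log2 fold changes of -2.16 (interval -2.21 to -2.11) for AG01050.1, -2.24 (-2.36 to -2.12) for AG06497.1 and -2.58 (-2.68 to -2.49) for AG04610.1.

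Another set of genes was lowest by a wide margin in 4M. AG00375.1 had 13.5 CPM in 0M, 9.22 CPM in 1M, 3.26 CPM in 3M and 0.668 CPM in 4M at 84 h, the last from 12 counts. AG00987.1 had 21.3, 8.88, 4.61 and 1.06 CPM in 0M, 1M, 3M and 4M, with 19 counts in 4M. AG03439.1 had 20.5, 10.8, 5.38 and 1.28 CPM in the same order, with 23 counts in 4M. In these 3 genes the step from 3M to 4M was the largest, with log2 fold changes of -2.11 for AG00375.1 (interval -3.31 to -1.38), -2.01 for AG00987.1 (-2.92 to -1.40) and -1.98 for AG03439.1 (-2.79 to -1.41). AG01234.1, AG00710.1 and AG07991.1 also had their largest step there, at -1.39, -1.14 and -1.09. AG01234.1 went down through 20.1, 12.1, 6.47 and 2.39 CPM with salt, AG00710.1 through 10.5, 6.18, 3.21 and 1.39 CPM, and AG07991.1 through 14.7, 8.88, 5.33 and 2.45 CPM. The 1 added in the rule lessens such steps at low levels. Without it, the TMM-scaled CPM of AG00375.1 was 4.88-fold lower in 4M than in 3M, more than the 3-fold limit, that of AG00987.1 was 4.36-fold lower and that of AG03439.1 was 4.21-fold lower.

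A further set had its largest log2 fold change at the first step, from 0M to 1M. AG06549.1 had 29.5 CPM in 0M, 11.5 CPM in 1M, 4.61 CPM in 3M and 3.28 CPM in 4M at 84 h. AG06520.1 had 20.5, 7.98, 5.07 and 2.67 CPM, and AG04991.1 had 17.9, 7.02, 3.11 and 1.17 CPM, at the same doses. In 1M against 0M their log2 fold changes were -1.35 (AG06549.1, interval -1.60 to -1.12), -1.35 (AG06520.1, -1.65 to -1.08) and -1.34 (AG04991.1, -1.66 to -1.05). AG01050.1 belonged to this set too, at -0.87 against -0.80 for the step from 1M to 3M. The margins were also narrow for AG06549.1, with -1.30 at the middle step, and for AG04991.1, with -1.33 at the last step. Without the prior count, the largest step of AG04991.1 was the last, at 2.66-fold lower against 2.55-fold lower in the first. The last step of AG06549.1 was small, at -0.47 (interval -0.99 to 0.0025).

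With TMM scaling, the remaining 5 genes had their largest fold at the middle step, which spans 2M of salt and not 1M. AG00707.1 had 20.3 CPM in 0M, 9.61 CPM in 1M, 2.80 CPM in 3M and 1.89 CPM in 4M at 84 h. AG04196.1 had 24.3, 11.1, 3.31 and 2.0 CPM. AG07254.1 had 35.3, 23.7, 12.9 and 7.52 CPM. AG04610.1 and AG06497.1, given above, complete the set. For 3 of the 5 this depended on the scale. On the scale of the rule, the first step of AG04610.1 was the largest, at 1.91-fold against 1.78-fold at the middle step. The same held for AG06497.1, at 1.91-fold against 1.79-fold. The last step was the largest for AG07254.1, at 1.72-fold against 1.66-fold at the middle step. The middle step was deepest in AG00707.1 (log2 fold change -1.74, interval -2.25 to -1.33) and AG04196.1 (-1.71, -2.18 to -1.33). Without the 1 added in the rule, this step too was more than 3-fold in both. The TMM-scaled CPM was 3.44-fold lower in 3M than in 1M for AG00707.1 and 3.36-fold lower for AG04196.1. The last step of AG00707.1 was not resolved by counting, at -0.54 (interval -1.23 to 0.083).

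Slopes per M of NaCl are given as a description only, since the rule holds all steps to the same fold range while the middle step spans 2M. The median log2 fold change per M of NaCl was -0.87 for the first step, -0.47 for the middle one (1M to 3M) and -0.90 for the last. The most even declines, by the SD of the 3 slopes, were those of AG07254.1 (SD 0.172 log2 units per M), AG04610.1 (0.207) and AG04196.1 (0.213), and the least even were those of AG00375.1, AG00987.1 and AG03439.1.

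**Figure D2:**
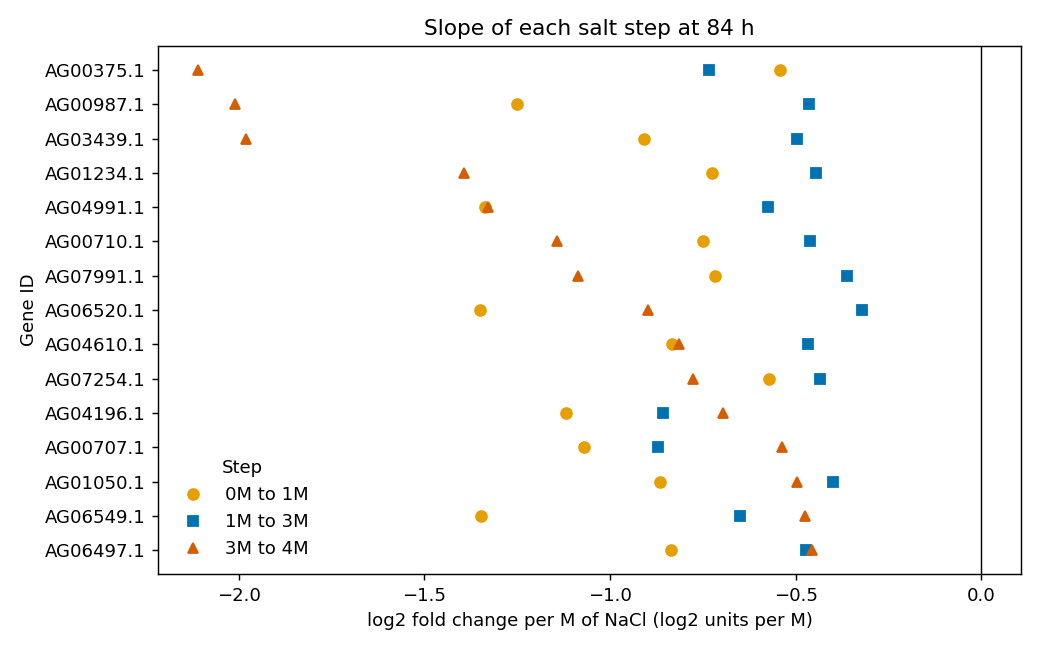
Log2 fold change per M of NaCl (horizontal axis) for each of the 15 genes (vertical axis) at the 3 salt steps at 84 h, marked by shape and colour. The middle step (squares) lies between -0.87 and -0.32 for all genes, while the last step (triangles) spans -2.11 to -0.46.

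Genes lay on both sides of the limits of the rule. On the scale of the rule, the member nearest to the 4-fold limit between 0M and 4M was AG07254.1 at 4.51-fold, and the nearest gene outside it, meeting all else, was AG02458.1 at 3.88-fold. The smallest step of any member was 1.36-fold (AG00707.1, 3M to 4M) and the largest was 2.92-fold (AG03439.1, 3M to 4M). Of the genes that failed a single condition, 22 had a last step of 3-fold or more, the nearest at 3.22-fold, and 14 had a first step under 1.3-fold, the nearest at 1.26-fold. The member nearest to the level limit of 11 was AG00710.1 at 12.1. The condition on the 36 h libraries removed 0 genes that met the rest. Membership at low levels depended on the constant added to CPM, since with 5 in place of 1 the rule found 14 genes, of which 5 were among the 15.

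The salt difference at 36 h comes from libraries whose fold the rule did not use. It asked whether the same genes stood lower in more salt at the earlier time. These libraries were, however, like those at the ends of the 84 h series. The r was 0.944 for 3M at 36 h with 4M at 84 h, and 0.906 for 1M at 36 h with 0M at 84 h. The contrast is therefore not independent of a choice made on 4M against 0M. In 3M, 13 of the 15 genes were lower than in 1M, and 48.0% of the 6159 genes were lower by any amount. At least 2-fold lower were 10 of the 15, against 17.2% of the 6159 genes, and at least 4-fold lower were 4, against 8.17%. The median log2 fold change of the 15 was -1.43, a level 2.70-fold lower in 3M, while that of the 6159 genes was 0.05. Both shares of the members lay above the background, although the difference that 2 cultures in the same salt would show is unknown. Scaling by total counts moved the median of the 6159 genes by -0.17. With it 12 of the 15 genes were at least 2-fold lower, against 20.3% of the 6159, and lower genes made up 69.5% of those past 2-fold among the 6159, against 58.6% with TMM scaling.

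**Figure D3:**
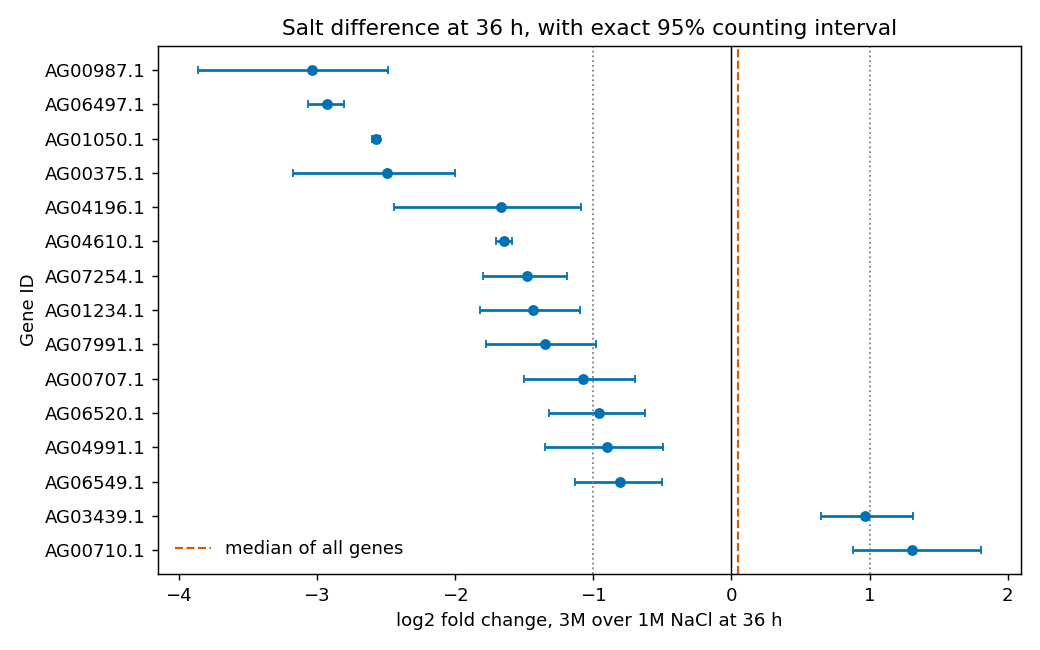
Log2 fold change of 3M over 1M NaCl at 36 h (horizontal axis) for each of the 15 genes (vertical axis), with exact 95% counting intervals as bars; dotted lines mark 2-fold and the dashed line the median of 6159 genes (0.05). The intervals of 13 genes lie below 0 and those of AG03439.1 and AG00710.1 above it.

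The lowest of these ratios belonged to AG00987.1, with 1.3 CPM in 3M and 11.4 CPM in 1M at 36 h (log2 fold change -3.03, interval -3.86 to -2.49). It was followed by AG06497.1 (-2.93, -3.06 to -2.80), AG01050.1 (-2.57, -2.60 to -2.54) and AG00375.1, which had 1.85 CPM in 3M and 10.9 CPM in 1M (-2.49, -3.17 to -2.0). These 4 are the genes at least 4-fold lower, and they include the members with the most counts (AG01050.1) and the fewest (AG00375.1) in 4M at 84 h. AG04196.1 followed, at 1.54 CPM in 3M against 5.15 CPM in 1M (-1.67, -2.44 to -1.09), close to AG04610.1 (-1.65, -1.71 to -1.59). Between -1.48 and -1.08 lay AG07254.1 (7.53 CPM in 3M, 21.1 CPM in 1M), AG01234.1 (5.37 and 14.7 CPM), AG07991.1 (4.57 and 11.8 CPM) and AG00707.1 (4.69 and 10.02 CPM). The intervals of these last 4 overlap, so their order is not resolved by counting. Nor is it resolved which gene was the lowest. The interval of AG00987.1 contains those of AG06497.1 and AG01050.1 and overlaps that of AG00375.1. That of AG04196.1 overlaps those of AG00375.1, AG04610.1 and the last 4.

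Among the 13 lower genes, 3 were less than 2-fold lower. AG06520.1 had 6.48 CPM in 3M and 12.7 CPM in 1M at 36 h (log2 fold change -0.96), AG04991.1 had 4.38 and 8.28 CPM (-0.90), and AG06549.1 had 8.02 and 14.1 CPM (-0.81). These are the same 3 genes that had the largest folds in 1M against 0M at 84 h. Their intervals at 36 h (-1.32 to -0.63, -1.35 to -0.50 and -1.13 to -0.50) exclude 0.

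The opposite direction was seen in 2 genes. AG00710.1 had 8.33 CPM in 3M and 3.30 CPM in 1M at 36 h, a log2 fold change of 1.31 (interval 0.88 to 1.81), from 135 and 57 counts. AG03439.1 had 13.6 CPM in 3M and 6.89 CPM in 1M, a log2 fold change of 0.97 (0.65 to 1.31), from 220 and 119 counts. At 84 h the same salt contrast, 3M against 1M, was -0.92 for AG00710.1 (-1.42 to -0.48) and -1.0 for AG03439.1 (-1.37 to -0.66). Only AG00710.1 was at least 2-fold higher at 36 h, which was the case for 12.2% of the 6159 genes. Neither its interval nor that of AG03439.1 lay wholly above 2-fold.

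The 15 genes were set beside the 576 other genes that met the level and 4-fold conditions in 4M against 0M at 84 h. The ID numbers left out of the rule were left out of these 576 genes too. In 4M against 3M at 84 h, which the rule bounds for the members, the 15 genes had a median log2 fold change of -0.90 and the 576 genes one of -2.93. At 36 h, in 3M against 1M, the median of the 15 was -1.43 and that of the 576 was -2.41. At least 2-fold lower there were 66.7% of the 15 and 84.4% of the 576, and at least 4-fold lower were 26.7% and 62.2%. The lowest member stood at -3.03 and the lowest of the 576 at -9.45, but these are extremes of sets of unlike size. The sets also differed in level, with medians of 11.8 and 48.3 CPM in 1M at 36 h. A low level limits how far a log2 fold change with a prior count can go down. The rule bounds every 84 h step of the members, and the library in 3M at 36 h was alike to 4M at 84 h (r = 0.944). The 36 h medians are therefore not independent of the choice. A mirrored rule for genes higher at each step found 10 genes, which also had to be at least 4-fold higher in 4M than in 0M. Their median at 36 h was 1.38, with 9 of 10 above 0, against 3204 of the 6159 genes. These shares were not compared by a test.

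**Figure D4:**
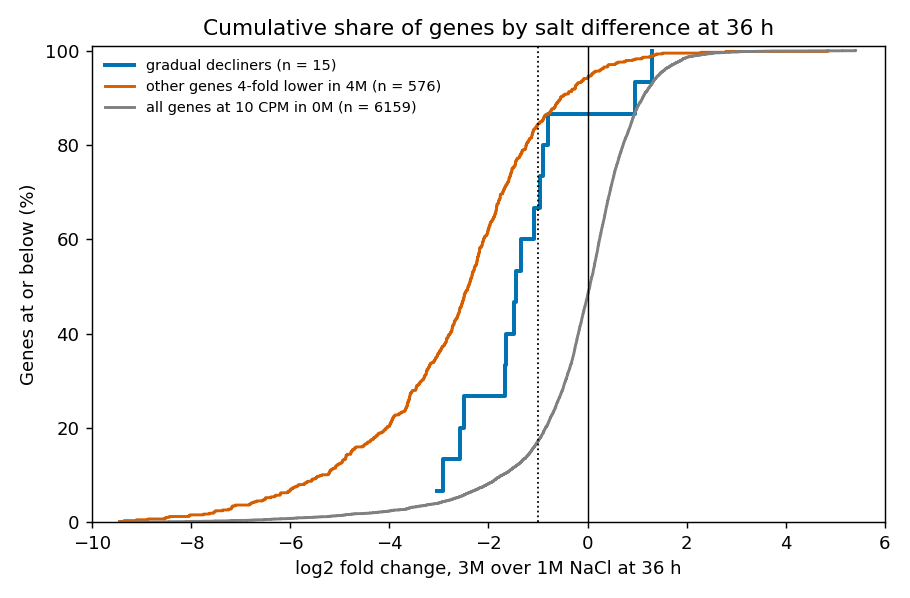
Cumulative percent of genes (vertical axis) at or below each log2 fold change of 3M over 1M NaCl at 36 h (horizontal axis), for the 15 gradually declining genes, the 576 other genes that were 4-fold lower in 4M, and all 6159 genes with at least 10 CPM in 0M at 84 h; the dotted line marks 2-fold lower. The ID numbers left out of the rule are not among the 576 genes. At a log2 fold change of -1 the curve of the 15 genes stands at 66.7%, that of the 576 genes at 84.4% and that of the 6159 genes at 17.2%. Above 0 lie 2 of the 15 genes.

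The 36 h levels can be placed within each gene's own 84 h series. In 1M at 36 h, 3 genes stood above all 84 h cultures, 8 stood between the 0M and 1M cultures of 84 h, and 4 between those in 1M and 3M. The last 4 were AG00710.1, AG03439.1, AG04196.1 and AG07254.1. In 3M at 36 h, 3 genes stood between the 0M and 1M cultures. Another 5 stood below 1M but above 3M, 5 stood below 3M but above 4M, and 2 (AG04196.1 and AG06497.1) lay below the 4M culture. The 15 genes were thus spread over 3 positions in the 1M library of 36 h and over 4 in the 3M library.

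The time difference was described at each salt concentration sampled at both times, with the caveat that the 84 h libraries served to choose the genes. In 1M, 11 of the 15 genes were lower at 84 h than at 36 h, as were 49.5% of the 6159 genes. The median log2 fold change was -0.28, against 0.01 for the 6159 genes. At least 2-fold lower were 3 of the 15, against 9.45% of the 6159 genes. They were the 3 most highly counted genes, AG01050.1 (576 CPM at 84 h, 4006 CPM at 36 h, log2 fold change -2.80), AG04610.1 (-1.47) and AG06497.1 (-1.34). AG04196.1 was the only member at least 2-fold higher, with 11.1 CPM at 84 h and 5.15 CPM at 36 h (1.09, interval 0.74 to 1.49). Genes at least 2-fold higher made up 10.4% of the 6159. Without the 3 highly counted genes, the largest decrease among the other 12 was -0.66 (AG06520.1).

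In 3M the members went both ways, with 8 of 15 lower at 84 h than at 36 h, against 49.7% of the 6159 genes, and 7 higher. The median log2 fold change was -0.35, against 0.01 for the 6159 genes and 2.07 for the 576 other declining genes. At least 2-fold lower were 3 of the 15, against 14.3% of the 6159 genes, and at least 2-fold higher were 2 of the 15, against 18.6%. Both shares were near the background. The lower genes were AG00710.1 (3.21 CPM at 84 h, 8.33 CPM at 36 h, log2 fold change -1.35), AG03439.1 (5.38 and 13.6 CPM, -1.32) and AG01050.1 (331 and 673 CPM, -1.02). The higher genes were AG00987.1 (4.61 CPM at 84 h, 1.3 CPM at 36 h, 1.74, interval 1.13 to 2.59) and AG04196.1 (3.31 and 1.54 CPM, 1.05, interval 0.42 to 1.83). AG04196.1 was higher and AG01050.1 lower at 84 h in both salt concentrations. In 3M, the difference of AG01050.1 was under 2-fold with total counts (-0.80), and that of AG04196.1 was just under 2-fold with DESeq2 size factors (0.9988). Scaling by total counts moved the median of the 6159 genes by 0.22 in this contrast, and that of the 15 genes to -0.13, with 2 at least 2-fold lower. Of the genes past 2-fold among the 6159, 43.5% were lower with TMM scaling and 31.8% with total counts.

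**Figure D5:**
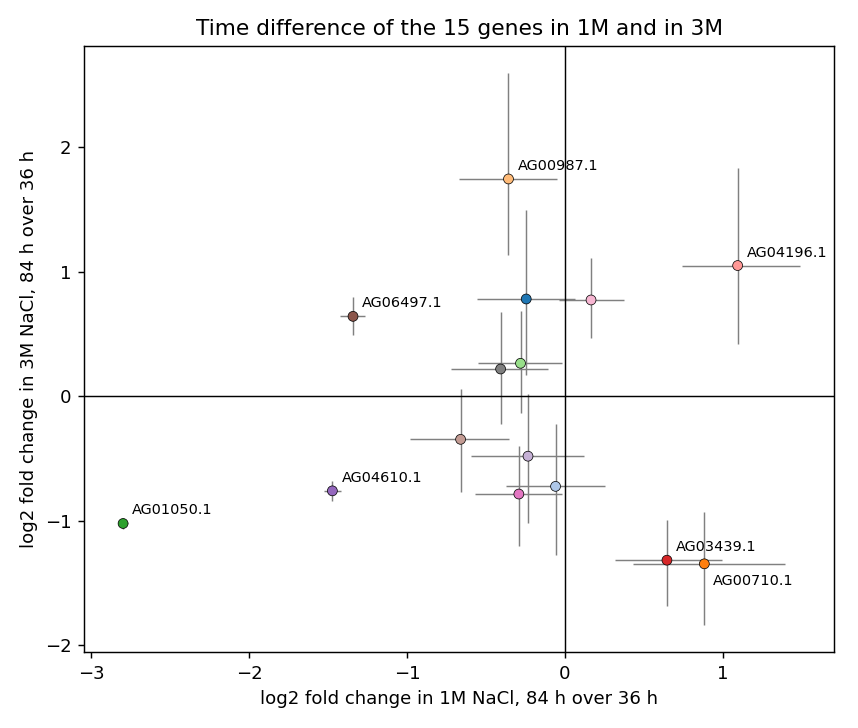
Log2 fold change of 84 h over 36 h in 1M NaCl (horizontal axis) and in 3M NaCl (vertical axis) for the 15 genes; bars are exact 95% counting intervals and the genes past 2-fold in either salt concentration are labelled. AG00710.1 and AG03439.1 lie at the lower right, higher at 84 h in 1M and lower in 3M, and AG00987.1 and AG06497.1 lie at the upper left.

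The 15 genes were scattered through the ID numbering. The closest pair were AG00707.1 and AG00710.1, 3 numbers apart, and the next closest were AG06497.1, AG06520.1 and AG06549.1, with gaps of 23 and 29. No member had another member as its immediate neighbour in number. The files do not show whether the numbering follows the chromosome, and overlapping or near-identical genes could not be recognised, so that the counts of such genes are uncertain. All 30 numbers directly beside a member were listed, and 19 of these genes had at least 10 CPM in 0M at 84 h. In 4M against 0M at 84 h the median log2 fold change of the 19 was 0.02 (-0.063 with scaling by total counts), and 0.06 over the 6159 genes. At least 2-fold lower were 4 of the 19, against 19.5% of the 6159, and at least 2-fold higher were 3, against 8.93%.

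The neighbours past 2-fold are named here after their values were seen. AG00376.1, next to AG00375.1, had 28.3 CPM in 0M, 74.1 CPM in 1M, 3.83 CPM in 3M and 0.445 CPM in 4M at 84 h, so that it was highest in 1M and below 1 CPM in 4M, as AG00375.1 was. AG00988.1, next to AG00987.1, had 380, 521, 721 and 6.23 CPM at the same doses, and was low in 4M alone among the 84 h cultures. AG07255.1, next to AG07254.1, had 24.9, 130, 7.66 and 3.01 CPM. The fourth, AG07990.1, had 154, 163, 213 and 69.1 CPM. None of the 4 declined step by step as the members did. On both sides of AG01050.1 the neighbours went the other way, with AG01049.1 at 176 CPM in 4M against 39.6 CPM in 0M (log2 fold change 2.15) and AG01051.1 at 421 CPM against 127 CPM (1.73). AG06519.1, next to AG06520.1, was also higher, at 90.9 CPM in 4M against 34.8 CPM in 0M (1.38).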

How the data were processed

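RNA sequencing libraries of 6 cultures were analysed, 1 per condition. Counts of reads per gene ID were used as deposited, and the authors had not normalized them. The submitters' processing notes list TopHat2 2.0.8b and HTSeq 0.5.4p2, while the build, annotation, strand setting and filters were not given in the sources used here. Files list only IDs with at least 1 read, so an unlisted ID was given 0 reads.

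Libraries were scaled by TMM over all 6 (edgeR 4.0.16, R 4.3.3), with a prior count of 2 for log2 fold changes. Intervals are those of the ratios without a prior count and are exact (Clopper-Pearson, SciPy 1.17.1). The background is all genes with at least 10 CPM by library total in 0M at 84 h, a limit that every member passes. No p-value was computed, because each condition has 1 library, and genes were counted by size (2-fold and 4-fold). The size rule and the member rule were run on simulated counts that held counting error only. For the member rule, the planted declines had equal steps and started above the 0M level of most members. How that rule behaves at low levels was therefore not simulated. Intervals cover counting error only, with no spread between cultures. Molecular identifiers were not used, so copies of the same molecule were counted as separate reads, which the intervals do not allow for. DESeq2 1.42.0 size factors, total counts and a prior count of 0.5 were alternatives.

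The members and lists were chosen with earlier results of these data known. Lists of the leading members in level, size of decline, 36 h difference and evenness were planned. The members that lead in none of these are named as well, so that all 15 appear. Also named are the genes nearest to the limits of the rule. Neighbouring IDs were named after their values were seen.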

Additional observations from a re-analysis of the deposited data

Results flagged for a closer look

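In 2 genes the contrast of 3M against 1M NaCl had opposite directions at 36 h and at 84 h. AG00710.1 had a log2 fold change of 1.31 at 36 h (interval 0.88 to 1.81) and of -0.92 at 84 h, and AG03439.1 one of 0.97 at 36 h (0.65 to 1.31) and of -1.0 at 84 h. In 4 genes the difference of 84 h against 36 h had opposite directions in the 2 salt concentrations with both counting intervals excluding 0. It was 0.88 in 1M and -1.35 in 3M for AG00710.1, and 0.65 and -1.32 for AG03439.1. It was -0.36 in 1M and 1.74 in 3M for AG00987.1, and -1.34 and 0.64 for AG06497.1. Opposite signs, with at least 1 interval that includes 0, were also seen in AG00375.1 (-0.25 in 1M and 0.78 in 3M), AG01234.1 (-0.28 and 0.26) and AG07991.1 (-0.41 and 0.22). The same 4 libraries give both contrasts, so for AG00710.1 and AG03439.1 these are not separate observations. Each of the directions that met this criterion rests on 1 library per condition with a counting interval that excludes 0. The difference between times or between salt concentrations was not tested. How often such opposite directions occur among the background genes was not counted, so they are not shown to be particular to these members.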

How the results depend on the processing

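Choosing the genes on TMM-scaled CPM gave the same 15. A minimum step of 1.2-fold gave 24 genes, all 15 among them, and one of 1.5-fold gave 8. With 5 added in place of 1, 14 genes met the rule and 5 of them were among the 15. With 0.5 added, 12 of 14 were. The make-up of the list therefore depends on the constant. In 3M against 1M at 36 h, the 8 genes with steps of 1.5-fold or more had 5 past 2-fold on the lower side (10 of the 15 before) and 2 past 4-fold (4 before). Without the 3 genes above 100 CPM, an alternative added after seeing the data, 2 of 12 were past 4-fold and 7 of 12 past 2-fold on the lower side. By exact interval, 0 genes were past 2-fold on the higher side and 8 on the lower side. With DESeq2 size factors 1 gene, not 2, was past 2-fold on the higher side in 84 h against 36 h in 3M. In the 36 h salt contrast, 21.8% of all genes with a read were past 2-fold on the lower side (17.2% before), and 13.5% of genes with 10 CPM in either library were past it on the higher side (12.2% before). The median of the ID neighbours in 4M against 0M was -0.063 with total counts. The median of the 15 at 36 h stayed between -1.60 and -1.40 under the scalings and prior counts tried, and was -1.21 without the 3 genes. For single genes, 45 alternative values were computed in each of the 36 h salt, 1M time and 3M time contrasts, and 0 changed sign. No paired analysis was possible because each condition has 1 library.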
